A study of Rattus norvegicus with 6 samples.

Results

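Transcripts of 48 genes that carry glucose carbon through glycolysis, the pentose phosphate pathway, the pyruvate dehydrogenase complex and the tricarboxylic acid (TCA) cycle were measured in rat brain by RNA sequencing. They were picked by gene symbol from a list of 49 genes, which was chosen with earlier results of these data known. The table holds 19382 genes, and 48 rows carried a listed symbol. The listed gene Idh3b has a row spelled Idh3B, which is given beside the others and not counted among them. All 48 passed the filter on low reads and were tested with 14959 genes in all.

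The hypoxia-ischemia (HI) group had 3 libraries from SD rats aged 7 days when HI was applied, lasting 2.5 h. Such rats serve as a model of brain injury around birth. The control group had 3 libraries of brain tissue from rats with the control treatment, described by the submitters as normal. No transgene or drug is named for either group, and the labels leave out the brain region, the interval from injury to sampling and the age of the control rats. Nothing in the labels ties a library to a separate animal, and the spread that the p-values measure, that between these libraries, may be technical.

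Glycolysis splits glucose into pyruvate in the cytosol. Pyruvate is either reduced to lactate or brought into mitochondria, where the pyruvate dehydrogenase complex turns it into acetyl-CoA for the TCA cycle. The pentose phosphate pathway branches off after hexokinase and yields NADPH and ribose. In brain, neurons and glia use different isoenzymes and transporters of these routes, lactate can pass between cells through monocarboxylate transporters, and low oxygen is known to induce many glycolytic genes through the factor HIF-1.

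Reads per library ran from 14324303 to 14927469 in HI and from 13922663 to 14692505 in control. Levels are CPM, reads per 1e6 reads after TMM scaling. A count of 0 allows up to 3 reads, which equal 0.182 to 0.201 CPM in HI and 0.221 to 0.227 CPM in control, for counting error only. Libraries also differed in the levels of cell type markers. Summed markers of microglia and macrophages (15 genes) came to 388, 532 and 669.5 CPM in HI 1, 2 and 3, against 156, 167 and 227 CPM in controls 1, 2 and 3, and 12 of 15 rose. Summed neuron markers (14 genes) came to 5764, 4795 and 3141 CPM in HI and 9712, 9602 and 8089 CPM in control, and 5 of 14 fell. Choroid plexus markers (10 genes) summed to 184, 8139 and 15281 CPM in HI and 16.7, 2173 and 7.70 CPM in control, which sets HI 2, HI 3 and control 2 apart from the other libraries. In bulk tissue, fewer cells of a type and less RNA per cell cannot be told apart.

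Of the 48 genes 5 passed the test, which was an adjusted p below 0.05 in edgeR's quasi-likelihood F test with Benjamini-Hochberg adjustment over all genes. Acss1, Hk3 and Hk2 rose in HI, and Slc16a7 and Pdha1 fell. Hk3 passed the filter on low reads through its HI libraries alone, so a difference was built into its being tested. The 5 calls, Hk3 included, are 10.4% of these genes, against 13.9% of all genes tested (6.83% higher and 7.04% lower in HI). The share is near that background. An unadjusted p below 0.05 was found for 15 of the 48 and for 36.5% of all genes. All but a few of the others differed little. The log2 fold change of 39 genes (81.2%) lay within 0.5 of 0, against 62.1% of all genes tested, which were not matched to the 48 for level. All 3 HI libraries stood above all 3 controls for 6 genes (12.5%) and below them for 12 (25.0%), where all genes gave 21.5% and 20.8%. The median log2 fold change was -0.12 over the 48 genes and 0.04 over all genes. It was -0.02 and 0.14 with upper-quartile scaling and 0.07 and 0.23 with total counts, so its sign depended on the scaling while these genes stayed below the median of all genes. The median of all genes moved by 0.19 with total counts. Calls higher in HI made up 49.2% of all calls with TMM, 64.3% with upper quartiles and 74.7% with total counts.

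**Figure D1:**
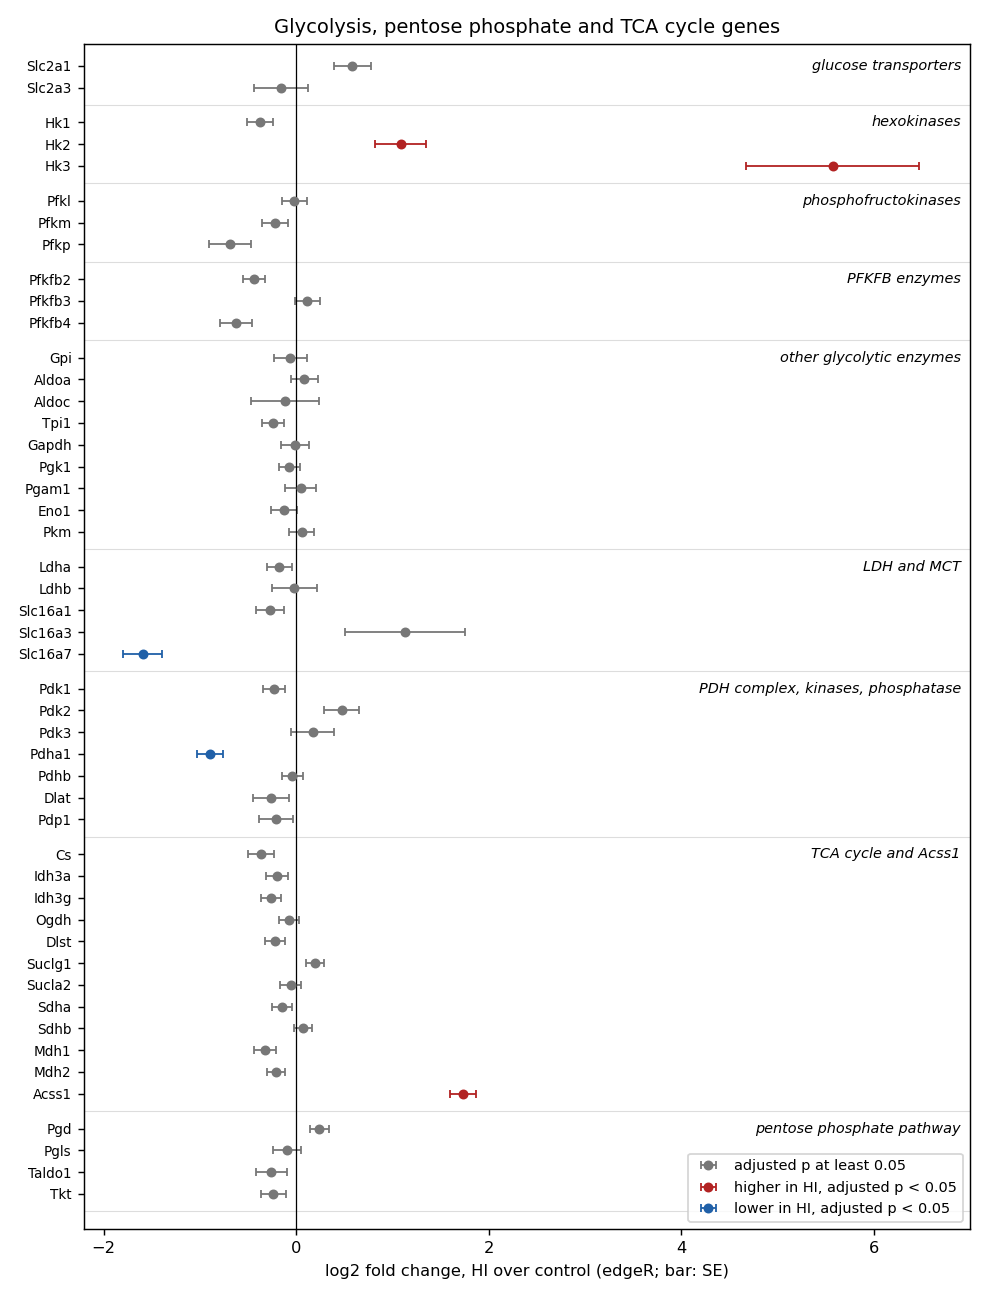
Log2 fold change of each of the 48 genes, HI over control, on the horizontal axis, grouped by role down the page (points are edgeR estimates, bars are SE, n = 3 libraries per group). Red marks the 3 genes that rose, blue the 2 that fell, and grey the 43 that did not pass, most of which lie within 0.5 of 0.

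The 5 calls depended on single libraries. Without HI 2, control 1 or control 2, each left out alone, none of the 5 passed, and the edgeR adjusted p of Acss1, Hk3, Slc16a7 and Pdha1 then lay between 0.0753 and 0.0946. By edgeR no gene of the whole table was called without HI 2 or control 1, where 4175 and 3962 genes had an unadjusted p below 0.05, and 1 gene was called without control 2. With all libraries DESeq2 called 4 of the 48 genes higher and 9 lower in HI (28.1% of all genes were called by it). By limma-voom 2 of the 48 were higher and 2 lower, against 552 and 819 of all 14959 genes tested. Without HI 1, HI 3 or control 3 Acss1, Hk3, Slc16a7 and Pdha1 passed, with edgeR adjusted p between 0.00842 and 0.0473. Hk2 passed only without HI 1 among these 6 fits, with edgeR adjusted p from 0.0203 to 0.142. The log2 fold change of Hk2 then ran from 0.88 to 1.28.

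Of the promoters matched to these genes, those of called genes that hold the core of a hypoxia response element are shown, because glycolytic genes are textbook targets of HIF-1. The motif ACGTG was searched on both strands in the 250 bases before each start in RefSeq's table (build GRCr8), where the other strand reads CACGT and the 2 forms overlap in CACGTG. It was present for 18 of the 42 genes with a promoter in the table (42.9%), for 22.7% of 11682 tested genes and in 16.6% of all 33469 promoters listed. Among called genes it was found for Slc16a7, which fell, and for Hk3, which rose, out of 4 with a promoter in the table. Among uncalled genes it was found for 16 of 38, Slc2a1, Hk1, Pfkm, Pfkfb3, Aldoa, Aldoc, Gapdh, Pgam1, Ldha, Slc16a1, Pdk2, Pdk3, Pdhb, Dlat, Ogdh and Idh3g. Capitals mark the motif, which starts 239 bases before the start of Slc16a7 (chr7:63040399-63040648, minus strand) and 97 bases before that of Hk3 (chr17:9604781-9605030, plus strand). A match of letters is a description and not a binding site.
Slc16a7: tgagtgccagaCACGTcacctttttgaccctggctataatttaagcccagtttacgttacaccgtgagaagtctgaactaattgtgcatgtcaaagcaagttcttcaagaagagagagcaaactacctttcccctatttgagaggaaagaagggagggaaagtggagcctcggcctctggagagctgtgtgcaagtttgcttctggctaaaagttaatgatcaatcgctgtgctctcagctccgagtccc
Hk3: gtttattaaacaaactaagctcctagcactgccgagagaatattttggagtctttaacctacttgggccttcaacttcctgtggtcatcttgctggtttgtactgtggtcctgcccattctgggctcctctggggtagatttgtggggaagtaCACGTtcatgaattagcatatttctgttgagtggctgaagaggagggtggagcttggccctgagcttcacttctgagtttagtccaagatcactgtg

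Glucose enters brain cells through Slc2a1 (GLUT1), found in endothelium and glia, and Slc2a3 (GLUT3), found in neurons. Slc2a1 stood at 64.9, 78.3 and 104 CPM in HI 1, 2 and 3 and at 54.9, 48.2 and 61.8 CPM in controls 1, 2 and 3. All HI libraries lay above all controls, by little in HI 1. Its log2 fold change of 0.58 ± 0.19 (SE) did not pass (edgeR adjusted p = 0.0825), though DESeq2 called it (DESeq2 adjusted p = 0.0366). Slc2a3, whose values are not all whole and are taken here as uncertain for reads shared with similar genes, had 21.8, 30.9 and 15.2 CPM in HI and 20.1, 27.1 and 28.6 CPM in control. The groups overlapped, with a log2 fold change of -0.16 ± 0.28. Summed endothelial markers, 222, 355 and 462 CPM in HI and 259, 348 and 317 CPM in control, were also lowest in HI 1 and highest in HI 3 among the HI libraries, and their part in Slc2a1 was not tested.

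Hexokinases trap glucose as its phosphate. Hk1, the main form of brain, had 400.5, 391 and 314 CPM in HI and 509.5, 490.1 and 434 CPM in control, with no overlap and a log2 fold change of -0.38 ± 0.14 (edgeR adjusted p = 0.102, not past the threshold). Hk2, an inducible form bound to mitochondria, had 13.0, 19.0 and 23.4 CPM in HI against 6.97, 8.69 and 10.5 CPM in control. The means were 18.5 ± 5.23 CPM in HI and 8.71 ± 1.76 CPM in control (SD, n = 3 each). Every HI library was above every control, and Hk2 rose 2.12-fold (log2 fold change 1.08 ± 0.27, edgeR adjusted p = 0.0459). Hk2 did not pass by limma-voom (limma adjusted p = 0.0652), nor by edgeR with no filter on low reads (edgeR adjusted p = 0.0511). Hk3, the form of myeloid cells, had 40, 133 and 185 reads in HI, or 2.67, 8.55 and 11.2 CPM. In control it had 2, 4 and 0 reads, or 0.151, 0.295 and 0 CPM. It passed the filter on low reads through its HI libraries alone, the only one of the 48 genes with under 10 reads in every control, so a difference was built into its being tested. Its rise passed (edgeR adjusted p = 0.0233), and the ratio of summed reads, corrected for library size, was 50.9, with a 95% counting interval (exact) of 23.2 to 139.7 that covers counting error only. The fitted log2 fold change of Hk3, which depends on the prior count where control reads are so few, was 5.57 ± 0.90, and it was 4.97 without control 3 and 6.45 without control 2. The summed markers of microglia and macrophages moved with Hk3, being lowest in HI 1 among the HI libraries and above every control in each of them. Of the 15 markers 13 were separated in this way from the controls, while P2ry12 and Tmem119 overlapped them, and the part of these cells in the rise of Hk3 was not tested. Blood leukocyte markers (12 genes) summed to 11.0, 26.5 and 43.0 CPM in HI and 4.77, 4.64 and 4.42 CPM in control. Only 3 of these 12 passed the filter on low reads, of which 2 rose. Cd3d, Cd3e and Cd3g, which define T cells, had 0 or 1 read in every library.

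**Figure D2:**
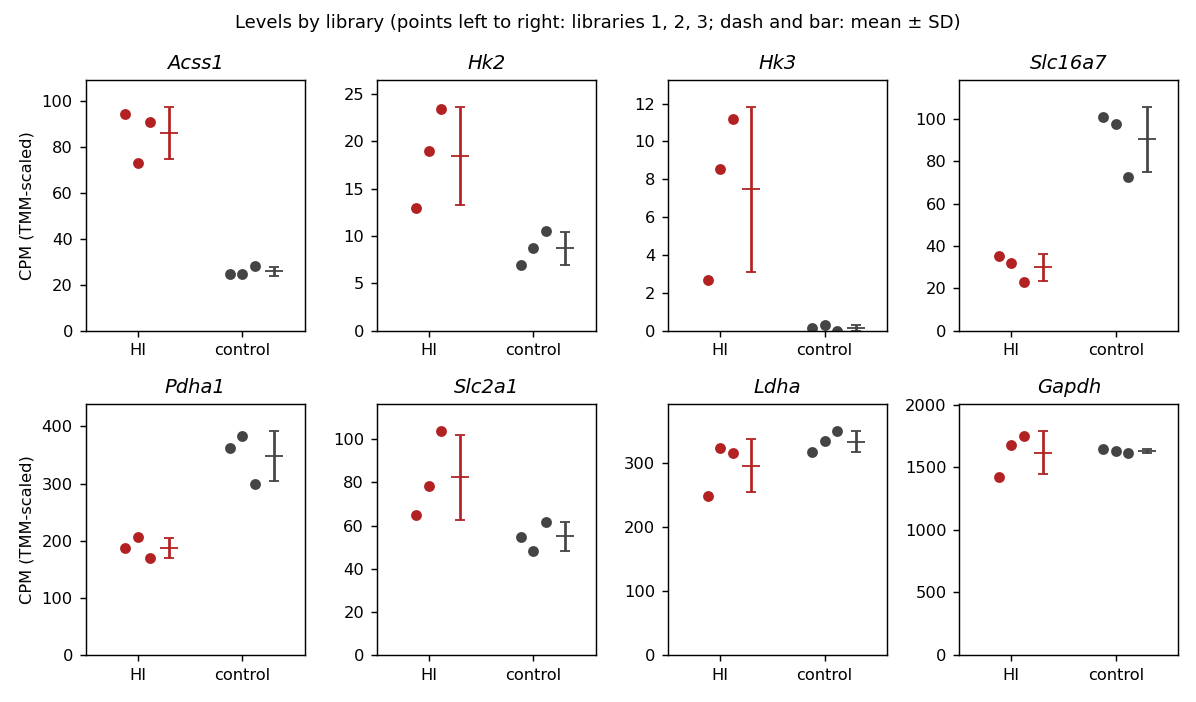
CPM of 8 genes in the 3 HI libraries (red, left) and the 3 control libraries (grey, right) of each panel, with mean and SD beside them (n = 3). Acss1, Hk2 and Hk3 are higher and Slc16a7 and Pdha1 lower in every HI library than in every control, Slc2a1 is separated without passing the test, and Ldha and Gapdh overlap.

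Phosphofructokinase is the main control point of glycolysis, and PFKFB enzymes make and break its activator fructose 2,6-bisphosphate. None of the 6 genes passed by edgeR or limma-voom. DESeq2 called 3, all lower in HI, against 28.1% of all genes, and 3 had an unadjusted edgeR p below 0.05, against 36.5% of all genes. Pfkp, the platelet-type subunit also made in brain, had 159, 154 and 132 CPM in HI and 202, 192 and 324 CPM in control. The groups did not overlap, but control 3 stood far above the other controls, and the log2 fold change of -0.69 ± 0.22 (edgeR adjusted p = 0.0757) was -0.44 without it. Pfkm, the muscle type, had 292, 266 and 243 CPM in HI and 304, 276 and 355 CPM in control (log2 fold change -0.22 ± 0.13). Pfkl, the liver type, had 153, 134 and 146 CPM in HI and 169.9, 131 and 138 CPM in control (-0.02 ± 0.13). Both overlapped. Pfkfb2 had 112, 97.9 and 90.5 CPM in HI and 141, 143 and 123 CPM in control, and Pfkfb4 28.6, 21.3 and 24.1 CPM in HI and 39.1, 43.1 and 31.8 CPM in control. Both were separated and missed the threshold closely, with log2 fold changes of -0.44 ± 0.12 and -0.62 ± 0.17 (edgeR adjusted p = 0.0534 and 0.0547, DESeq2 adjusted p = 0.0111 and 0.0116). Pfkfb3, the strongly kinase-active form that hypoxia is known to induce, had 82.9, 93.6 and 104 CPM in HI and 96.8, 77.2 and 84.5 CPM in control, with overlap and a log2 fold change of 0.12 ± 0.13. Values of Pfkfb4 and, in the TCA cycle, of Ogdh are also not all whole, so some reads may be shared.

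The 9 other enzymes from glucose phosphate to pyruvate were close to level. None passed by edgeR, and none had an unadjusted p below 0.05 or was called by DESeq2 or limma-voom. Their log2 fold changes ran from -0.24 for Tpi1, the triose phosphate isomerase, to 0.09 for Aldoa, the general aldolase. Tpi1 had 287, 279.7 and 248 CPM in HI and 294, 321 and 345 CPM in control, the only one of the 9 with separated groups. Aldoa had 737, 898 and 855 CPM in HI and 749, 728 and 869.6 CPM in control. Gapdh, often used as a loading control, had 1423, 1678 and 1755 CPM in HI and 1650.3, 1633 and 1619 CPM in control, a log2 fold change of -0.01 ± 0.15. Its groups overlapped, with HI 1 below all controls and the other HI libraries above them. Pgk1, the first enzyme of the pathway to yield ATP, had 189.7, 219 and 219 CPM in HI and 204, 228 and 228 CPM in control (log2 fold change -0.07 ± 0.11). Pkm, the pyruvate kinase, had a log2 fold change of 0.06 ± 0.13, Eno1, the enolase, -0.13 ± 0.14, Pgam1, the phosphoglycerate mutase, 0.05 ± 0.16, and Gpi, the glucose phosphate isomerase, -0.06 ± 0.17. With total counts as the scaling the values of Gapdh, Pgk1, Eno1 and Gpi turned positive. Values of Tpi1, Gapdh and Pkm are not all whole, so reads may be shared with similar genes, and many processed copies of Gapdh are known in rodents.

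Aldoc, the aldolase of astrocytes, varied more within the groups than between them. It had 392, 229.7 and 216 CPM in HI and 263, 200.4 and 444 CPM in control, so HI 1 and control 3 were high and the rest low. The summed astrocyte markers (12 genes) had the same order as Aldoc among the controls, with 2750.2, 2244 and 3536 CPM. Among the HI libraries the order differed, with 4734, 4589 and 6312 CPM. The part of these markers in Aldoc was not tested. The log2 fold change of Aldoc was -0.12 ± 0.35 and ranged from -0.45 to 0.24 when 1 library was left out.

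Lactate dehydrogenase interconverts pyruvate and lactate, with Ldha the form that favours lactate and Ldhb the form that favours pyruvate. Ldha had 248, 323 and 315 CPM in HI and 316, 334 and 349.7 CPM in control, and its groups overlapped barely (log2 fold change -0.17 ± 0.13, edgeR adjusted p = 0.375). Ldhb had 278, 294 and 318 CPM in HI and 235, 247 and 419.7 CPM in control (log2 fold change -0.02 ± 0.23). Control 3 alone was above the HI libraries, and without it the log2 fold change of Ldhb was 0.26.

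The monocarboxylate transporters, which carry lactate across membranes, did not move together. Slc16a7 (MCT2), the high-affinity form of neurons, fell to 35.0, 31.9 and 22.9 CPM in HI, against 101, 97.8 and 72.6 CPM in control. The groups were far apart, with means of 30.0 ± 6.31 in HI and 90.4 ± 15.5 in control (SD, n = 3 each) and a log2 fold change of -1.59 ± 0.21 (edgeR adjusted p = 0.0215). Leaving out any 1 library gave -1.76 to -1.43. Slc16a1 (MCT1), of endothelium and glia, had 91.7, 75.6 and 105 CPM in HI and 97.5, 118 and 114 CPM in control, which overlap (log2 fold change -0.27 ± 0.15). Slc16a3 (MCT4), a low-affinity exporter of glycolytic cells and astrocytes, had 1.20, 5.14 and 6.91 CPM in HI and 1.82, 1.55 and 2.70 CPM in control. HI 1 was below all controls and HI 2 and HI 3 above them. Its log2 fold change of 1.13 ± 0.62 did not pass (edgeR adjusted p = 0.235), while without HI 1 it was 1.57 (edgeR adjusted p = 0.0309). HI 2 and HI 3 are also the libraries with the most choroid plexus reads, and the part of those reads was not tested. Neuron markers were lower in every HI library as a sum, as was Slc16a7, and their part in its fall was not tested.

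At the entry to mitochondria Pdha1 stood out. It encodes the E1 alpha subunit, which carries the serines that the pyruvate dehydrogenase kinases phosphorylate to switch the complex off. Pdha1 fell to 186, 206 and 169 CPM in HI, against 362, 384 and 299.9 CPM in control, with means of 187 ± 18.3 in HI and 349 ± 43.5 in control (SD, n = 3 each). This was 0.537 of the control level (log2 fold change -0.90 ± 0.14, edgeR adjusted p = 0.0220), and the log2 fold change was -1.03 to -0.83 when 1 library was left out. The summed neuron markers given above were also lower in every HI library, and their part in Pdha1 was not tested. The partners of Pdha1 in the complex did not pass. Pdhb, the E1 beta subunit, had 124, 125 and 109 CPM in HI and 119, 114 and 135 CPM in control (log2 fold change -0.04 ± 0.11), and Dlat, the E2 subunit, had 87.9, 82.6 and 57.6 CPM in HI and 86.9, 81.1 and 106 CPM in control (-0.26 ± 0.19).

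Of the regulators of the complex, the kinases Pdk1, Pdk2 and Pdk3 and the phosphatase Pdp1, none passed by edgeR, DESeq2 or limma-voom, and Pdk2 alone had an unadjusted p below 0.05. Pdk2 had 41.3, 49.996 and 52.8 CPM in HI and 33.5, 28.2 and 42.2 CPM in control (log2 fold change 0.47 ± 0.18, edgeR adjusted p = 0.114), overlapping only between HI 1 and control 3. Pdk1, a known HIF-1 target, had 58.4, 61.8 and 60.7 CPM in HI and 76.9, 73.5 and 61.8 CPM in control (-0.23 ± 0.11), separated by a narrow gap at control 3. Pdk3 had 16.6, 24.7 and 29.6 CPM in HI and 19.4, 20.4 and 23.1 CPM in control (0.17 ± 0.22). Pdp1 had 34.3, 31.9 and 30.6 CPM in HI and 45.9, 29.5 and 36.4 CPM in control (-0.21 ± 0.18). Both overlapped. Summed over the 7 genes of the complex and its regulators, Pdha1 included, levels were 549, 582 and 509.5 CPM in HI and 744, 730.2 and 704 CPM in control.

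Acss1 had the smallest p of the 48 genes. It is the mitochondrial synthetase that makes acetyl-CoA from acetate. Acss1 rose to 94.3, 73.0 and 90.9 CPM in HI, against 24.8, 24.7 and 28.0 CPM in control, with means of 86.1 ± 11.4 in HI and 25.8 ± 1.88 in control (SD, n = 3 each). The lowest HI library was more than 2 times the highest control. The fold was 3.33 (log2 fold change 1.74 ± 0.13, edgeR adjusted p = 0.0196), with log2 fold changes of 1.66 to 1.84 when 1 library was left out. Unlike Hk3 and Slc16a3, Acss1 was not lowest in HI 1, and the astrocyte markers given above, of which 2 of 12 rose, were higher in HI as a sum. Only 4 of the 12 were above every control in each HI library, and 2 had negative log2 fold changes. The part of astrocyte markers in Acss1 was not tested.

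The 11 TCA cycle enzymes all had log2 fold changes within 0.5 of 0 with TMM scaling. Of these 9 were negative, as were 6992 of all 14959 genes tested. None passed by edgeR or limma-voom. An unadjusted edgeR p below 0.05 was found for 3 of the 11, against 36.5% of all genes. DESeq2 called 3, against 28.1% of all genes, and these were Cs, Mdh1 and Mdh2, all lower in HI. Cs, the citrate synthase that opens the cycle, had 206, 223 and 164 CPM in HI and 249, 255 and 262 CPM in control (log2 fold change -0.37 ± 0.13, edgeR adjusted p = 0.102). Mdh1 and Mdh2 are the cytosolic and mitochondrial malate dehydrogenases of the malate-aspartate shuttle. Mdh1 had 276, 293 and 262 CPM in HI and 322, 332 and 388 CPM in control, and Mdh2 had 231, 245 and 233 CPM in HI and 261, 274 and 286 CPM in control. With TMM scaling every HI library was below every control for both, with log2 fold changes of -0.33 ± 0.11 and -0.21 ± 0.09. Among the other fits tried, the values nearest 0 were -0.14 for Mdh1 and -0.02 for Mdh2. The same separation held for Idh3g, a subunit of the NAD-dependent isocitrate dehydrogenase (-0.26 ± 0.10). Its other subunits, Idh3a and the row spelled Idh3B, had log2 fold changes of -0.20 ± 0.12 and 0.09 ± 0.11. Ogdh and Dlst of the oxoglutarate dehydrogenase complex had -0.08 ± 0.11 and -0.22 ± 0.11. Suclg1 and Sdhb, subunits of succinyl-CoA ligase and succinate dehydrogenase, were the 2 with positive values, 0.20 ± 0.10 and 0.07 ± 0.09, while their partners Sucla2 and Sdha had -0.06 ± 0.11 and -0.15 ± 0.11. Summed over the 11 enzymes, levels with TMM scaling were 1883, 1959 and 1767 CPM in HI and 2048, 2062 and 2265 CPM in control. The order of these sums under other scalings was not tested.

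In the pentose phosphate pathway none of the 4 genes passed by edgeR, DESeq2 or limma-voom. An unadjusted edgeR p below 0.05 was found for 1, against 36.5% of all genes. Pgd, the phosphogluconate dehydrogenase that yields NADPH, had 90.7, 103 and 101 CPM in HI and 87.3, 85.0 and 77.3 CPM in control, separated and with a log2 fold change of 0.24 ± 0.10 (edgeR adjusted p = 0.133). Pgls, the lactonase before it, had -0.09 ± 0.15, and the enzymes of the branch that returns carbon to glycolysis, Taldo1 and Tkt, had -0.26 ± 0.16 and -0.24 ± 0.13, all with overlap.

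Ratios of related genes within a library do not depend on the scaling between libraries, so isoenzymes were also compared in this way for 15 pairs. In 5 pairs every HI library was above every control and in 3 every HI library was below. Of all single genes tested, 42.3% were separated in either direction, and a share over all pairs was not computed. The pair Hk3/Hk1 is among the 5, and a difference was built into it, because Hk3 passed the filter through its HI libraries alone. Its control ratios lean on the 2 reads added to each gene, since Hk3 had 2, 4 and 0 reads there. With 3 libraries against 3 an exact permutation test (two-sided) cannot give a p below 0.10, and after adjustment over the 15 pairs the smallest was 0.188, so no pair passed. The log2 ratio of Hk2 to Hk1 was -4.93, -4.35 and -3.74 in HI and -6.16, -5.79 and -5.35 in control, a difference of 1.43, or a 2.69-fold higher ratio. The log2 ratio of Slc16a1 to Slc16a7 was 1.39, 1.24 and 2.19 in HI and -0.05, 0.27 and 0.65 in control, 2.49-fold higher. Pdk1 relative to Pdk2 was 0.61 of the control ratio, and Pdk2 relative to its opponent Pdp1 was 1.59-fold higher, both with separated groups. Pfkfb3 relative to Pfkfb2 was 1.47-fold higher and Pfkp relative to Pfkm 0.74 of control, also separated. Ldha relative to Ldhb overlapped, at -0.16, 0.13 and -0.01 in HI and 0.43, 0.43 and -0.26 in control. So did Aldoc relative to Aldoa and Slc2a1 relative to Slc2a3.

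**Figure D3:**
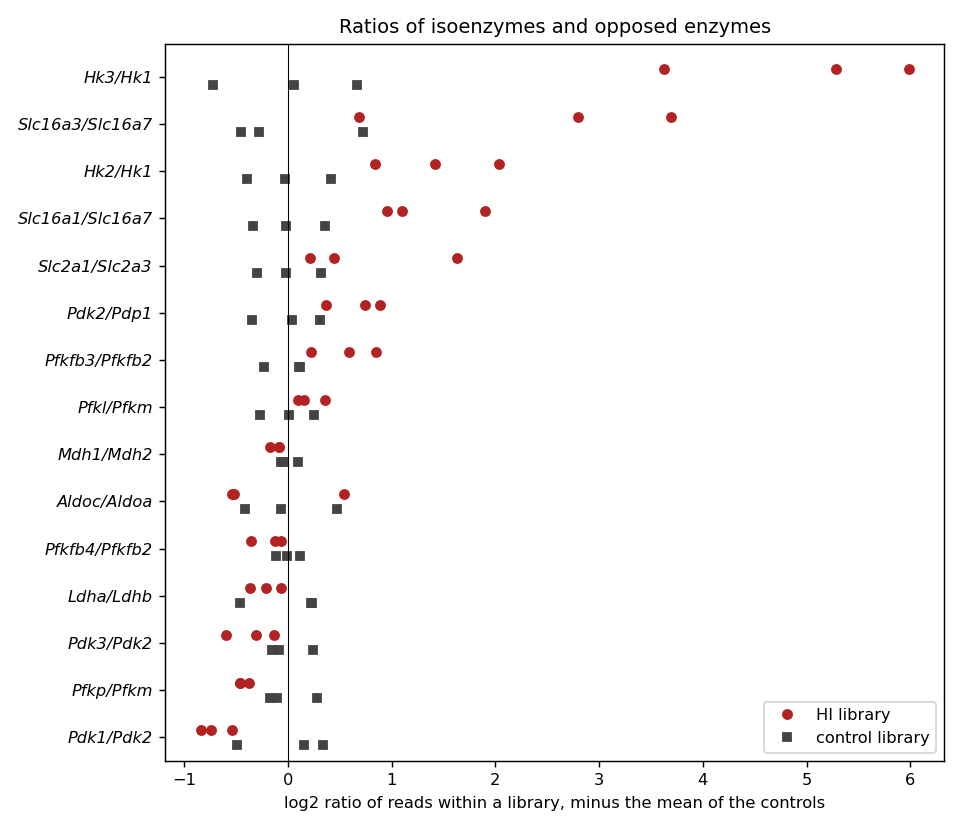
Log2 ratio of the reads of 2 genes within each library, minus the mean of the 3 controls, for 15 pairs ordered by the difference (red circles are the 3 HI libraries, grey squares the 3 controls). Hk3/Hk1, Hk2/Hk1 and Slc16a1/Slc16a7 lie above the controls in all HI libraries and Pdk1/Pdk2 below, while Slc16a3/Slc16a7, Ldha/Ldhb and Aldoc/Aldoa overlap. Hk3 passed the filter on low reads through its HI libraries alone.

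Further genes of the same routes were read from lists that hold none of the 48. These lists were fixed with earlier results of these data known, so their shares of called genes are descriptions only. Of 26 tested genes of pyruvate and TCA metabolism 5 rose and 4 fell (34.6%, against 13.9% of all genes). Pdk4, a pyruvate dehydrogenase kinase induced by fasting, rose to 3.28, 3.21 and 5.82 CPM in HI, against 0.757, 0.736 and 0.824 CPM in control (log2 fold change 2.40 ± 0.36, edgeR adjusted p = 0.0220). Its reads were few, at 49, 50 and 96 in HI and 10, 10 and 11 in control. Mpc1, a subunit of the mitochondrial pyruvate carrier, fell to 53.8, 50.4 and 52.4 CPM in HI, against 76.0, 77.5 and 76.7 CPM in control (-0.56 ± 0.08, edgeR adjusted p = 0.0220). Acss2, the cytosolic and nuclear counterpart of Acss1, fell to 37.4, 37.5 and 37.6 CPM in HI, against 60.9, 53.3 and 55.6 CPM in control (-0.59 ± 0.10, edgeR adjusted p = 0.0238). Acss1 and Acss2 thus moved in opposite directions. Pck2, the mitochondrial phosphoenolpyruvate carboxykinase, rose 1.79-fold (edgeR adjusted p = 0.0285).

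The other calls of that list are named after their values were seen. Idh2, the NADP-dependent isocitrate dehydrogenase of mitochondria, rose 2.30-fold, Suclg2, the GTP-forming partner of Suclg1, 1.98-fold, and Me2, a mitochondrial malic enzyme, 1.56-fold. Acly, which makes cytosolic acetyl-CoA from citrate, fell to 0.586 and Pdp2, the second pyruvate dehydrogenase phosphatase, to 0.404 of the control level. The edgeR adjusted p of these 5 lay between 0.0312 and 0.0479. As with the 5 genes above, none of the 9 passed without HI 2, control 1 or control 2. Pck2, Me2, Suclg2 and Pdp2 did not pass without HI 3 either, and Pck2, Idh2, Me2 and Acly without control 3. By limma-voom Suclg2 and Pdp2 did not pass (limma adjusted p = 0.0595 and 0.0563), and Suclg2 did not pass with no filter on low reads.

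**Figure D4:**
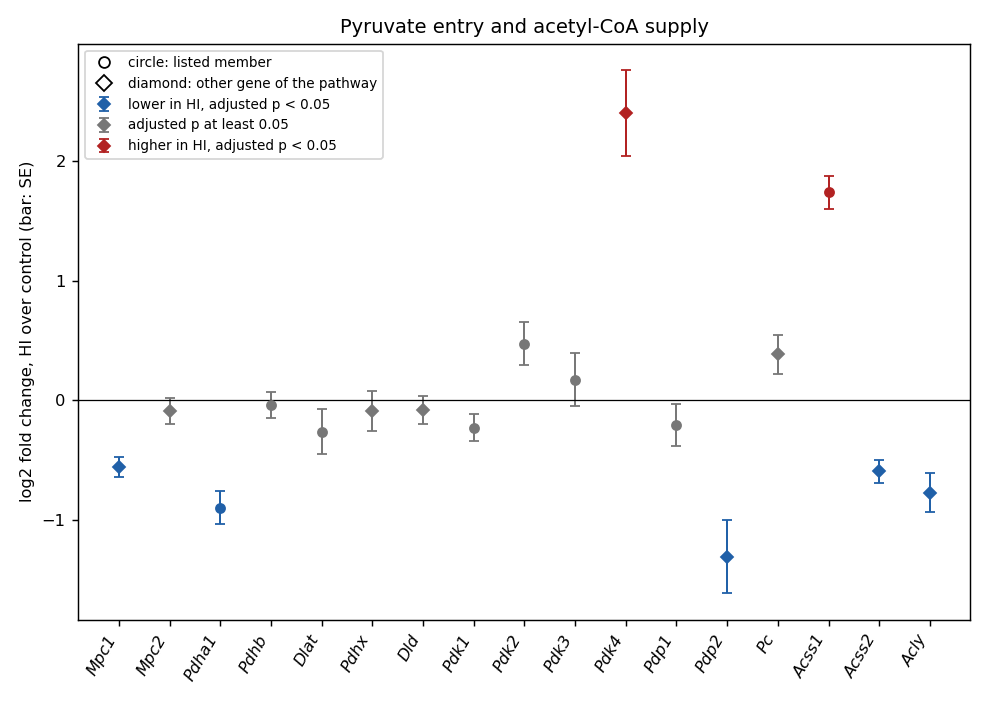
Log2 fold change, HI over control, with SE (n = 3 libraries per group), of genes of pyruvate entry and acetyl-CoA supply (circles are among the 48 genes, diamonds are other genes of the routes). Acss1 and Pdk4 are higher, Pdha1, Mpc1, Pdp2, Acss2 and Acly lower in HI, and the other subunits of the complex lie near 0.

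In the list of other glycolysis genes 2 of 18 rose and 2 fell (22.2%). Adpgk, an ADP-dependent glucokinase, rose 1.70-fold, and Hkdc1, a hexokinase-like gene listed as LOC100364027 with at most 4.81 CPM in any library, 3.68-fold. Tigar, which lowers fructose 2,6-bisphosphate, fell to 0.502 and the transporter Slc2a6 to 0.513 of the control level. The edgeR adjusted p of these 4 lay between 0.0332 and 0.0427. Among 8 other pentose phosphate genes 1 rose, the ribokinase Rbks (2.21-fold, edgeR adjusted p = 0.0317), and none fell. Among 20 glycogen genes 1 rose and 1 fell (10%). Gyg1, the primer protein of glycogen, rose 1.53-fold, and Pgm2l1, which makes glucose 1,6-bisphosphate in brain, fell to 0.422 of the control level (edgeR adjusted p = 0.0330 and 0.0410). None of these 7 genes passed without HI 2, control 1 or control 2, and Hkdc1 did not pass whichever library was left out. Adpgk, Gyg1, Tigar and Rbks did not pass without HI 3 either, and Adpgk, Gyg1, Slc2a6 and Pgm2l1 without control 3. By limma-voom Adpgk and Hkdc1 did not pass (limma adjusted p = 0.0556 and 0.0652), and Hkdc1 did not pass with no filter.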

How the data were processed

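RNA from rat brain was extracted with TRIzol and libraries were made with the SMARTER mRNA-Seq Library Prep Kit, as stated per the labels' protocols. HISAT2 2.1.0, SAMtools 1.10, StringTie 2.2.1 and the assembly Rnor_6.0 are named in the submitters' processing notes, without roles, and which tool counted reads is not given in the sources used here. Values of the authors' deposited matrix are estimated counts, since 8.87% of values (2410 genes, 6 of the 48) are not whole within 1e-09, and they were rounded. Such values were taken as a sign of reads shared with other genes, which no source used here states.

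Genes were kept by edgeR's filterByExpr (minimum count 10), scaled by TMM and tested by edgeR's quasi-likelihood F test (edgeR 4.0.16, R 4.3.3) on group alone, with Benjamini-Hochberg adjustment over 14959 genes and a threshold of 0.05. Alternatives were DESeq2 1.42.0, limma-voom (limma 3.58.1), other scalings and filters, a replicate block and each library left out. The fit was also run on simulated counts, with means and dispersions taken from these data, and its outcome is not reported here. Isoenzyme ratios are log2 of reads plus 2 within a library, by exact permutation (scipy 1.17.1). Promoter sequences are RefSeq's (GRCr8), and their coordinates were not mixed with those of Rnor_6.0.

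The 48 genes and all lists were chosen with earlier results of these data known. Among the 48, every library's value is given for called genes, the smallest p of each branch and both genes of every isoenzyme pair. Gapdh, Pgk1, Pdhb, Dlat and Cs were added outside these rules. From further lists up to 4 called genes by p are named, some of them by fold alone. Total counts per library were 13922663 to 14927469, and the common biological coefficient of variation was 0.275.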

Additional observations from a re-analysis of the deposited data

How the results depend on the processing

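The 5 calls kept their direction under every scaling, filter, tool and left-out library tried. Over all genes, calls higher in HI numbered 2161 with total counts, 2076 with DESeq2 and 552 with limma-voom, against 1021 in the reported fit, and calls lower in HI 2124 with DESeq2, against 1053. Over the 48 genes, 5 were higher with total counts and 9 lower with DESeq2, against 3 and 2. Leaving out 1 library gave 0 to 2097 higher and 0 to 1592 lower over all genes, and 0 to 5 higher and 0 to 4 lower among the 48, where fewer samples enter each fit. With no filter 2 of the 48 were higher, Hk2 not among them, and 2 lower. Whether the replicate number of the titles pairs the libraries is not stated. Correlations of same-numbered deviations were 0.24, 0.07 and -0.15, which cannot decide this with 3 libraries per group. With the replicate number as a replicate block 771 genes were higher and 952 lower, and 3 and 2 of the 48. Of the called genes from the further lists, Pck2, Me2, Pdp2, Gyg1 and Hkdc1 did not pass with the block.

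Several uncalled genes changed sign, and the cause was not tested. With total counts the log2 fold changes were Slc2a3 0.027, Pfkl 0.17, Gpi 0.13, Aldoc 0.061, Gapdh 0.18, Pgk1 0.12, Eno1 0.070, Ldha 0.020, Ldhb 0.17, Pdhb 0.15, Ogdh 0.12, Sucla2 0.13, Sdha 0.040 and Pgls 0.10. With upper quartiles they were Pfkl 0.076, Gpi 0.037, Gapdh 0.084, Pgk1 0.025, Ldhb 0.080, Pdhb 0.058, Ogdh 0.021, Sucla2 0.041 and Pgls 0.0033. Ldhb was 0.029 by limma-voom and 0.030 with the block. With 1 library left out, values ran from -0.45 to 0.062 for Slc2a3, -0.13 to 0.070 for Pfkl, -0.19 to 0.10 for Gpi, -0.45 to 0.24 for Aldoc, -0.075 to 0.066 for Gapdh, -0.083 to 0.16 for Pgam1, -0.20 to 0.26 for Ldhb, -0.021 to 0.37 for Pdk3, -0.12 to 0.024 for Pdhb, -0.013 to 0.088 for Sdhb and -0.53 to 0.064 for the log2 ratio of Aldoc to Aldoa. Depth limits Hk3 most, with 6 reads in the controls together.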

Other observations

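Of 14 other HIF-1 target genes outside these pathways, none passed by edgeR or limma-voom, where edgeR called 13.9% of all genes. An unadjusted p below 0.05 was found for 6, against 36.5% of all genes, and DESeq2 called 0 higher and 3 lower in HI, against 28.1% of all genes. The log2 fold change was positive for 7 and negative for 7. All HI libraries were above all controls for 1 gene, against 21.5% of all genes tested, and below them for 5, against 20.8%. The 1 above was P4ha2, a collagen prolyl hydroxylase subunit. It had 13.0, 18.7 and 22.8 CPM in HI and 10.2, 12.4 and 11.8 CPM in control (log2 fold change 0.67 ± 0.23, edgeR adjusted p = 0.0934). Car9, a carbonic anhydrase, had 0.736, 1.93 and 7.82 CPM in HI and 0.227, 1.18 and 0.449 CPM in control, with overlap and HI 3 far above the rest (2.48 ± 0.99, edgeR adjusted p = 0.125). P4ha2 and Car9 were named after their values were seen. Ndrg1, a gene of oligodendrocytes and stressed cells, had 47.6, 47.7 and 47.4 CPM in HI and 148, 172 and 57.3 CPM in control (log2 fold change -1.40 ± 0.38, edgeR adjusted p = 0.0541). Every HI library was below every control, with control 3 near the HI libraries. Mif, an inflammatory cytokine whose reads may be shared with similar genes, had 65.2, 67.8 and 82.9 CPM in HI and 104, 118 and 92.2 CPM in control (-0.54 ± 0.14, edgeR adjusted p = 0.0504). Summed oligodendrocyte lineage markers (12 genes, 3 of which fell) were 785, 982 and 927 CPM in HI and 1035, 1187 and 1507 CPM in control, and their part in Ndrg1 was not tested.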
